A study of Mus musculus with 6 samples.

Results

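The genes described here encode the voltage-gated sodium channels, the voltage-gated calcium channels, the HCN channels and the sodium leak channel NALCN in mouse hippocampus after cerebral ischemia/reperfusion (I/R). They were the rows of the deposited gene table whose name begins with Scn, Cacna, Cacnb or Hcn followed by a digit, together with Nalcn. Epithelial sodium channel genes (Scnn) and Cacng genes were left out of the channel genes, and Cacng genes were counted among channel partners instead. The rule found 36 of 41386 genes, of which 33 are described. Of these 33, 32 had at least 10 reads over the 6 libraries and were tested, and Scn10a was not tested with 7, 1 and 0 reads in the I/R libraries against 1, 0 and 0 in the sham libraries. Scn4a had no row under its name and was not analysed here. The study compared 3 I/R libraries with 3 sham libraries by bulk RNA-seq of total RNA. In the I/R group of C57BL/6 wild type mice, 56 days old and given as C57BL/6J in the study's methods, the middle cerebral artery was closed for 1.5 h by an intraluminal filament (MCAO) and blood flow then returned for 24 h. The sham group, of the same strain and age, had a sham operation. Per the study's methods the mice were males, hippocampi of the ipsilateral side were taken, and hippocampi of several mice were pooled for each library. Replicates therefore differ as pools of animals and not as single animals.

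Voltage-gated sodium and calcium channels open when the membrane depolarizes. Sodium channels carry the rising phase of the action potential, and calcium channels couple it to transmitter release, dendritic signalling and gene transcription. HCN channels open on hyperpolarization and carry the current Ih, which sets the input resistance and rhythm of hippocampal pyramidal cells, while NALCN passes a steady sodium leak near rest. Each channel has a large pore-forming subunit, and sodium and calcium channels add auxiliary subunits that set their trafficking and gating.

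Total counts were 37493042 to 44788547 per library, and no pair of libraries had identical counts. The choroid plexus gene Ttr had 810 counts in I/R replicate 3 and 385 counts in sham replicate 1 but 68521 to 140679 counts in the other libraries, so these 2 libraries stood apart in how much choroid plexus RNA they held. Markers of dentate granule cells and of CA1 and CA3 pyramidal cells were all detected, but so were striatal and thalamic markers, so detection alone does not set the hippocampal label apart. Levels are given as CPM, the counts of a gene relative to the total of its library, with the total adjusted by edgeR's TMM method (trimmed mean of M-values). A gene was called a DEG where edgeR's quasi-likelihood test gave a Benjamini-Hochberg adjusted p under 0.05 over all 22996 genes tested and the fold change was over 1.2.

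Of the 32 tested channel genes described, 20 were lower in I/R, 1 was higher and 11 were not called. Over all genes tested, 16.3% were lower and 17.2% were higher. A fall of more than 2-fold was found for 8 channel genes, against 3.95% of all genes, and a rise of that size for 1, against 8.82%. The 3 I/R libraries all lay below the 3 sham libraries for 23 channel genes and all above them for 1, against 24.3% and 26.1% of all genes, which makes 24 genes without overlap against 50.4%. The log2 fold change was below 0 for 26 of the 32 channel genes and for 46.2% of all genes. The median log2 fold change, I/R minus sham, was −0.76 for the channel genes and 0.07 for all genes. The 20 genes that fell were all among the 25 channel genes with a mean of at least 10 CPM over the 6 libraries, and 24 of these 25 had a negative log2 fold change. Of all genes at that level, 29.7% were lower. The 7 tested channel genes under 10 CPM were Cacna1s, which was called higher, and 6 that were not called.

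The 33 channel genes together took 0.211%, 0.285% and 0.301% of the counts in I/R replicates 1, 2 and 3. In the sham libraries they took 0.445%, 0.429% and 0.430%. Their summed level was 1806, 2661 and 2824 CPM in I/R and 4864, 4772 and 4714 CPM in sham. I/R replicate 1 had the lowest value of the 3 I/R libraries for 25 of the 32 tested genes and for 19 of the 20 genes that fell. The summed level of 7 neuronal markers, from Rbfox3 to Stmn2, had the same order over the I/R libraries but not over the sham libraries. These markers stood at 1571, 2957 and 3258 CPM in I/R and at 6006, 6074 and 5783 CPM in sham, with all 7 markers lower in I/R and a median log2 fold change of −1.04. Rbfox3, Syn1 and Nefl were not called without sham replicate 2, nor were Rbfox3 and Nefl without sham replicate 1. Map2, also listed as a neuronal marker, was not matched to a single row and was not used. In bulk tissue, fewer cells of a type and less RNA per cell cannot be told apart, and the part of the neuronal markers in the channel results was not tested. Without I/R replicate 1, 22 channel genes were lower. With library size alone as the scaling, the median of all genes rose from 0.07 to 0.35 and 17 channel genes were lower and 2 higher. All genes then split into 6483 higher and 1953 lower, against 3951 higher and 3737 lower with TMM. The median of the channel genes minus that of all genes was −0.83 under TMM scaling and −0.84 under library size alone.

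**Figure D1:**
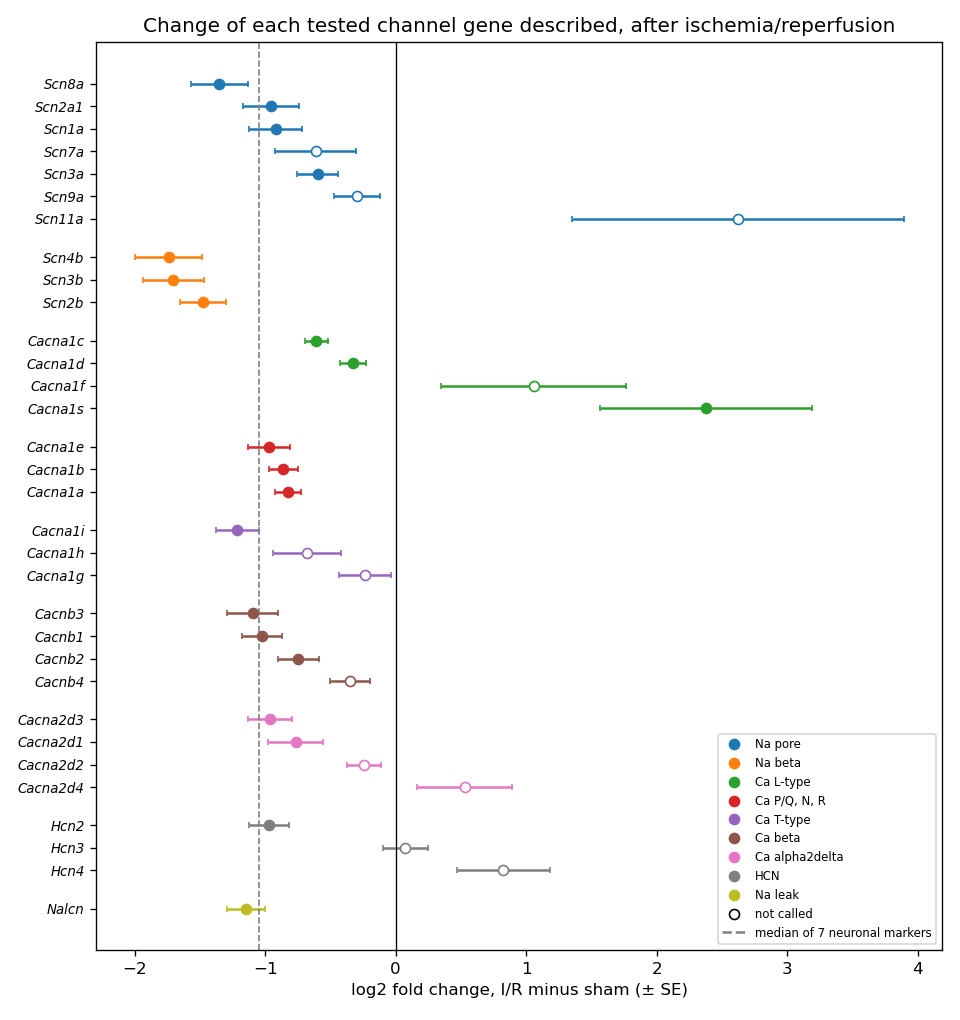
Log2 fold change, I/R minus sham, of each of the 32 tested channel genes, by family. Points are edgeR estimates and bars are ± 1 standard error from 3 I/R and 3 sham libraries, filled points were called DEGs, and the dashed line is the median of 7 neuronal markers at −1.04. Sodium channel beta subunits lie farthest to the left, between −1.74 and −1.47, and Scn11a and Cacna1s, with few reads, lie to the right with wide bars.

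**Figure D2:**
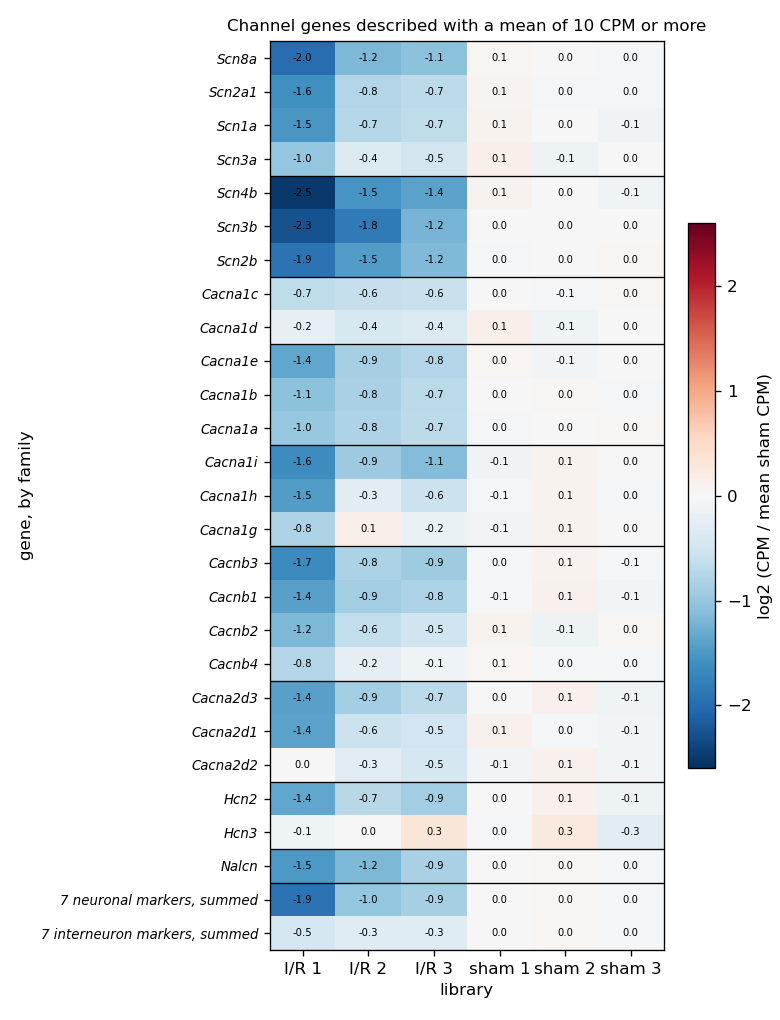
Log2 of the CPM in each library relative to the mean CPM of the 3 sham libraries, for the 25 channel genes with a mean of at least 10 CPM and for the summed neuronal and interneuron markers. Blue is lower and red is higher than sham, and the column of I/R replicate 1 is the darkest.

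RefSeq promoter windows, from 250 bases before to 50 bases after the transcription start on GRCm38.p6, were found for 26 of the 33 channel genes, with 36 windows in all. The windows of the 3 genes with the largest falls among these, Scn4b, Scn2b and Scn8a, are shown beside that of Cacna2d2, which had the smallest change of the uncalled genes of at least 10 CPM that had a window. Where a gene had several windows, the most upstream is shown. All 4 lie on the plus strand, at chr9:45138374-45138673, chr9:45117626-45117925, chr15:100870395-100870694 and chr9:107399630-107399929 in that order, and capitals mark each CG dinucleotide.
Scn4b: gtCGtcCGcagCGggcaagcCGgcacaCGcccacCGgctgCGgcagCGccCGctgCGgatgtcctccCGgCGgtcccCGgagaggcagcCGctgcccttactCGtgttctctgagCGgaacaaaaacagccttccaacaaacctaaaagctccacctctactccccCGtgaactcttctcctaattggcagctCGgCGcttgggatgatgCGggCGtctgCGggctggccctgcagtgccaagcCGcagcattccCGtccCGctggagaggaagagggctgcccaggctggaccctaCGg
Scn2b: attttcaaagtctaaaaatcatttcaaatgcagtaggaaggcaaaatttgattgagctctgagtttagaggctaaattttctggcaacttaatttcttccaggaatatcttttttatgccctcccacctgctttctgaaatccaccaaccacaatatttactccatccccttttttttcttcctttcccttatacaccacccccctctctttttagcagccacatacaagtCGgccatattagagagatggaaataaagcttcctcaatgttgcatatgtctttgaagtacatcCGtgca
Scn8a: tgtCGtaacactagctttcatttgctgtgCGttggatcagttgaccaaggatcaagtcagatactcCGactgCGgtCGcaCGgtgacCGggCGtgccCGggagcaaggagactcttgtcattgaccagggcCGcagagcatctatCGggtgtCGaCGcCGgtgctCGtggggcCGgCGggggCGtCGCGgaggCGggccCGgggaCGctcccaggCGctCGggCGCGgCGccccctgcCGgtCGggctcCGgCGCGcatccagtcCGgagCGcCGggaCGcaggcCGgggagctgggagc
Cacna2d2: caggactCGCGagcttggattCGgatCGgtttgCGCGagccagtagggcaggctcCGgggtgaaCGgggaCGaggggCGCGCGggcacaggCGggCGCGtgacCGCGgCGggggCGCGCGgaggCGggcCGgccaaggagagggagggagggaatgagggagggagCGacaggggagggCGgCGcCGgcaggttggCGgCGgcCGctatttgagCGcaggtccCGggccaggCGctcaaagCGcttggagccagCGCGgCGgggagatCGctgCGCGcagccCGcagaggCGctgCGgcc
The 4 windows held 26, 2, 38 and 43 CG dinucleotides, so genes that fell by similar amounts had start regions both rich and poor in CG. All 32851 windows had a median of 7 CG dinucleotides, with quartiles of 3 and 20, the 25 windows of 17 genes that fell had a median of 12, and the 11 windows of other channel genes had a median of 9. On either strand, the GC box GGGCGG was in 10 of the 25 windows of genes that fell, 6 of the 11 others and 35.7% of all windows. The TATA box letters TATAAA were in 2 of 25, 0 of 11 and 13.6%, and the letters CCAAT were in 6 of 25, 2 of 11 and 37.4%. The cyclic AMP response element TGACGTCA, the E-box CACGTG and the AP-1 letters TGANTCA were in 0 of the 36 channel windows, against 1.79%, 7.15% and 7.81% of all windows. These counts describe letters in the windows and not sites that a factor binds.

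Among the pore-forming sodium channel genes, the 4 that are abundant in brain fell and those described with low reads were not called. Scn8a encodes the channel of the axon initial segment and the nodes of Ranvier and lies at chromosome 15, 98923031 to 99104255, on the BALB/cJ assembly that the table uses. It was at 137, 239 and 259 CPM in I/R and at 559, 533 and 527 CPM in sham, each in the order of replicates 1 to 3. The groups did not overlap, and the highest I/R library had less than the lowest sham library by a wide margin. The log2 fold change of Scn8a was −1.35 (SE 0.22, adjusted p = 0.00194). Scn2a1, listed in the table under its older name, encodes the main channel of unmyelinated axons of excitatory neurons. It was at 149.6, 267 and 279 CPM in I/R and 469, 440 and 440 CPM in sham, and its log2 fold change was −0.96 (SE 0.21, adjusted p = 0.00875). Scn1a, the channel on which fast-spiking inhibitory neurons rely most, was at 56.9, 98.0 and 103 CPM in I/R and 173, 161 and 154 CPM in sham. For Scn1a the log2 fold change was −0.92 (SE 0.20, adjusted p = 0.00945), and the groups of Scn1a and Scn2a1 were apart as well. Scn3a, which is most abundant in the brain before birth, was at 38.5, 59.4 and 55.8 CPM in I/R and 84.9, 71.0 and 76.4 CPM in sham. Its fall was the smallest of the 4, with a log2 fold change of −0.60 (SE 0.16, adjusted p = 0.0179), and it was not called without sham replicate 1 (adjusted p = 0.0783) or 3 (adjusted p = 0.0570), with the 4 libraries of high Ttr alone (adjusted p = 0.0810) or with library size alone (adjusted p = 0.0912, all by edgeR).

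The other sodium channel pores described were at most 6.41 CPM in any library. Scn9a, a channel of peripheral sensory neurons, was at 4.43 to 5.03 CPM in I/R and 5.19 to 6.41 CPM in sham (log2 fold change −0.30, adjusted p = 0.230). These groups did not overlap, but Gm13629 on the opposite strand overlaps Scn9a and had 30.4% as many reads, so the level of Scn9a is uncertain. Scn7a, which encodes a sodium sensor rather than a voltage-gated channel, was at 1.86 to 3.31 CPM in I/R and 2.66 to 5.23 CPM in sham (−0.61, adjusted p = 0.165). The groups of Scn7a overlapped. Scn11a had 7, 1 and 8 reads in the I/R libraries against 0, 1 and 1 in the sham libraries, all 3 of which were under the floor of 3 counts. I/R replicate 2 was under that floor too, the groups overlapped, and the gene, which passed the read minimum only through its I/R reads, was not called (adjusted p = 0.146). Scn1a, Scn2a1, Scn3a, Scn7a and Scn9a stand in a row on chromosome 2, from 62903590 to 64246392, and Scn10a and Scn11a lie on chromosome 9, from 117714294 to 117940074. The row on chromosome 2 thus held 3 genes that fell beside 2 that were not called.

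The sodium channel beta subunit genes Scn4b, Scn3b and Scn2b all fell more than 2-fold and had the 3 largest falls of the channel genes described. These single-pass membrane proteins bind the pore subunit, change its gating and act as adhesion molecules. Scn4b, whose product is linked to resurgent sodium current, was at 6.40, 12.6 and 13.99 CPM in I/R and 39.2, 37.0 and 33.7 CPM in sham. Scn4b had the largest of these falls, with a log2 fold change of −1.74 (SE 0.26, adjusted p = 0.00172). Scn3b was at 78.0, 105 and 161 CPM in I/R and 377, 369 and 376 CPM in sham, with a log2 fold change of −1.70 (SE 0.23, adjusted p = 0.00122). The 3 I/R libraries of Scn3b were spread over about a 2-fold range while the sham libraries were nearly level. Scn2b, whose product is joined to the pore by a disulfide bond, was at 92.6, 128 and 158 CPM in I/R and 344, 346 and 361 CPM in sham, with a log2 fold change of −1.47 (SE 0.18, adjusted p = 0.000543). In each of these 3 genes I/R replicate 1 was the lowest library and no I/R library reached a sham library. Scn2b and Scn4b are neighbours on chromosome 9, from 42176920 to 42213839, and their promoter windows above held 2 and 26 CG dinucleotides.

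The 2 abundant L-type calcium channel genes fell, each with a smaller log2 fold change than any P/Q-, N- or R-type gene. L-type channels sit on cell bodies and dendrites and couple calcium entry to transcription. Cacna1c, the main L-type gene of brain and heart, lies at chromosome 6, 116474139 to 117091468. It was at 111, 117 and 119 CPM in I/R and 178, 170 and 181 CPM in sham, so the 3 I/R libraries were close together. Cacna1c had a log2 fold change of −0.61 (SE 0.088, adjusted p = 0.00115). Dcp1b on the opposite strand overlaps Cacna1c and had 12.1% as many reads, which leaves a part of this level uncertain. Cacna1d, the other L-type pore of neurons, was at 54.5, 47.7 and 49.1 CPM in I/R and 69.0, 58.4 and 62.5 CPM in sham, the only gene that fell in which I/R replicate 1 was not the lowest I/R library. The log2 fold change of Cacna1d was −0.33 (SE 0.10, adjusted p = 0.0325). It was not called with library size alone (−0.05, adjusted p = 0.784), with the 4 libraries of high Ttr alone (−0.25, adjusted p = 0.240) or without I/R replicate 2 (adjusted p = 0.0937), I/R replicate 3 (adjusted p = 0.0648), sham replicate 1 (adjusted p = 0.134) or sham replicate 3 (adjusted p = 0.0926). Dcp1a and Chdh, on the opposite strand, had 50.1% and 13.7% as many reads as Cacna1d, so its level is uncertain.

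Cacna1s, the pore of skeletal muscle, was the 1 channel gene called higher, and its reads were few and passed the read minimum only through the I/R libraries. The I/R libraries had 11, 29 and 8 reads of it and the sham libraries 2, 2 and 4, with a log2 fold change of 2.38 (SE 0.81, adjusted p = 0.0499). The groups did not overlap, but the call was lost without I/R replicate 2 (1.55, adjusted p = 0.251) and without sham replicate 1, 2 or 3 (adjusted p = 0.136, 0.143 and 0.0720). Cacna1f, known from the retina, had 36, 6 and 33 reads in the I/R libraries against 18, 9 and 5 in the sham libraries and was not called (adjusted p = 0.287). The summed level of the 4 L-type genes was 165.6 to 168.7 CPM in I/R and 228 to 248 CPM in sham. The I/R libraries were level here, although the summed level of all channel genes was much lower in I/R replicate 1 than in the other 2.

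All 3 pore genes of the P/Q-, N- and R-type channels, which trigger transmitter release and shape spikes, fell by similar amounts. Cacna1e, the R-type pore, lies at chromosome 1, 153395266 to 153885327, and was at 225, 316 and 339 CPM in I/R and 593, 550.4 and 582 CPM in sham. The log2 fold change of Cacna1e was −0.97 (SE 0.16, adjusted p = 0.00205). Cacna1b, the N-type pore of presynaptic terminals, was at 84.1, 98.8 and 109 CPM in I/R and 177, 181 and 171 CPM in sham, with a log2 fold change of −0.86 (SE 0.11, adjusted p = 0.000705). Cacna1a, the P/Q-type pore, was at 89.1, 101 and 109 CPM in I/R and 172, 178 and 179 CPM in sham, with a log2 fold change of −0.82 (SE 0.10, adjusted p = 0.000601). In all 3 genes the groups were well apart and the spread among I/R libraries was narrower for Cacna1a and Cacna1b than for Cacna1e.

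Of the 3 low-voltage-activated T-type genes, which support burst firing, only Cacna1i was called. Cacna1i was at 35.4, 57.4 and 50.7 CPM in I/R and 104, 118 and 110 CPM in sham, with a log2 fold change of −1.21 (SE 0.16, adjusted p = 0.000909). Cacna1h, the T-type gene with the highest FPKM in sham, lies at chromosome 17, 23952636 to 24018210. It was at 59.8, 137 and 112 CPM in I/R and 158, 174 and 161 CPM in sham. The groups of Cacna1h did not overlap, but the I/R libraries were far apart and it was not called (log2 fold change −0.68, SE 0.26, adjusted p = 0.0809). Without I/R replicate 1 it was called (−0.40, adjusted p = 0.000502), and likewise without I/R replicate 2 (−0.95, adjusted p = 0.0249) and by DESeq2 on all libraries (adjusted p = 0.0239). Cacna1g was at 41.7, 79.0 and 63.9 CPM in I/R and 69.0, 76.6 and 71.5 CPM in sham, so that I/R replicate 2 lay above all sham libraries. Its log2 fold change was −0.23 with TMM (adjusted p = 0.416) and 0.03 with library size alone.

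Of the calcium channel beta subunits, the cytoplasmic proteins that bring the pore to the membrane, 3 of 4 fell. Cacnb3 was at 58.0, 103 and 95.7 CPM in I/R and 178, 195 and 175 CPM in sham, with a log2 fold change of −1.09 (SE 0.20, adjusted p = 0.00343). Cacnb1, the beta subunit gene with the highest FPKM in sham, lies at chromosome 11, 96832683 to 96854566, and was at 65.0, 91.7 and 98.5 CPM in I/R and 166, 188 and 164 CPM in sham. Cacnb1 had a log2 fold change of −1.02 (SE 0.15, adjusted p = 0.00132). Cacnb2 was at 33.4, 48.3 and 52.6 CPM in I/R and 80.4, 68.6 and 76.1 CPM in sham, with a log2 fold change of −0.75 (SE 0.16, adjusted p = 0.00702). None of these 3 genes had an I/R library as high as a sham library. Cacnb4, mutated in the epileptic lethargic mouse, was at 99.5, 142 and 155 CPM in I/R and 176, 164 and 166 CPM in sham and was not called (−0.35, SE 0.15, adjusted p = 0.113). It was called without I/R replicate 3 (−0.50, adjusted p = 0.0368), and all I/R libraries lay below the sham libraries, with replicate 3 the nearest.

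Of the alpha2delta subunits, extracellular proteins that raise channel number at the synapse, 2 of 4 fell. Cacna2d3 was at 45.6, 65.5 and 76.2 CPM in I/R and 120.5, 131 and 113 CPM in sham, with a log2 fold change of −0.96 (SE 0.17, adjusted p = 0.00302). Cacna2d1, a binding target of gabapentin, lies at chromosome 5, 13301951 to 13743844, and was at 91.7, 162 and 171 CPM in I/R and 260.0, 233 and 230 CPM in sham. Its log2 fold change was −0.77 (SE 0.21, adjusted p = 0.0239). The groups of both genes were apart, but without sham replicate 1, 2 or 3 Cacna2d1 was not called (adjusted p = 0.0782, 0.0668 and 0.0548), nor with the 4 libraries of high Ttr (adjusted p = 0.0516) or library size alone (adjusted p = 0.0596). Cacna2d2, the other target of gabapentin, was at 34.8, 28.5 and 25.5 CPM in I/R and 33.5, 38.0 and 33.5 CPM in sham, and I/R replicate 1 was here the highest I/R library. Its log2 fold change was −0.24 with TMM (SE 0.13, adjusted p = 0.188) and 0.04 with library size alone, and without I/R replicate 1 it was called (−0.37, adjusted p = 0.00390). Cacna2d4 was at 2.12 to 3.11 CPM in I/R and 1.02 to 2.86 CPM in sham (0.53, adjusted p = 0.306). Lrtm2 on the opposite strand overlaps Cacna2d4 and had 13924 reads, many more than Cacna2d4, so its level is uncertain.

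Among the HCN genes, Hcn2 fell, and Hcn3 and Hcn4 were not called. Hcn2, which is widespread in brain, lies at chromosome 10, 77696054 to 77715493, and was at 39.4, 61.1 and 54.0 CPM in I/R and 102, 108 and 92.4 CPM in sham. Hcn2 had a log2 fold change of −0.97 (SE 0.15, adjusted p = 0.00170). Hcn3 was at 11.7, 12.7 and 15.7 CPM in I/R and 12.4, 15.1 and 10.6 CPM in sham (0.08, SE 0.17, adjusted p = 0.775, and −0.08 without I/R replicate 3). Hcn4, the gene of cardiac and thalamic pacemaking, was at 2.83, 3.79 and 2.04 CPM in I/R and 1.11, 1.37 and 2.43 CPM in sham. Its log2 fold change of 0.83 was not called (SE 0.36, adjusted p = 0.108), but it was without sham replicate 3 (1.22, adjusted p = 0.0441) and with library size alone (1.10, adjusted p = 0.0404). The groups of Hcn3 and of Hcn4 overlapped.

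Nalcn, the sodium leak channel at chromosome 14, 117086925 to 117415973, was at 54.5, 68.5 and 85.1 CPM in I/R and 153, 157 and 151 CPM in sham. Nalcn had a log2 fold change of −1.15 (SE 0.15, adjusted p = 0.000729), and the groups were far apart. Of the 21 called genes, 17 kept their call under all 15 alternative fits, and the other 4 were Scn3a, Cacna1d, Cacna1s and Cacna2d1. Of the 20 genes that fell, 7 had a log2 fold change below the median of the neuronal markers, and these were Scn8a, Scn2b, Scn3b, Scn4b, Cacna1i, Cacnb3 and Nalcn.

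Levels of different genes were compared per length, with the deposited FPKM (fragments per kilobase of gene length, relative to the counted fragments of the library). In sham, the highest of the genes described in each family was Scn8a at 146 ± 5.51 FPKM (mean ± SD, n = 3), Scn3b at 211 ± 4.44, Cacna1c at 25.1 ± 1.10, Cacna1e at 76.9 ± 3.72, Cacna1h at 42.0 ± 1.83, Cacnb1 at 86.8 ± 5.82, Cacna2d1 at 65.1 ± 4.93 and Hcn2 at 28.7 ± 2.11, and Nalcn was at 19.6 ± 0.246 FPKM. On the FPKM scale the sodium channel genes were the highest and Nalcn and Cacna1c the lowest of these, but per listed length Cacnb3 was above every sodium channel pore and Cacna1h was below Nalcn. Within the abundant sodium pores, Scn8a stood above Scn2a1 at 118 ± 5.27, Scn1a at 28.4 ± 1.82 and Scn3a at 12.7 ± 1.27 FPKM, with no overlap between neighbours over the sham libraries. The FPKM of 25 of the 33 genes rests on a length shorter than the gene length the table lists, and per listed length 3 of these families had another highest gene in sham. Counts per kilobase of listed length, relative to the library total as in FPKM, were 46.2 ± 2.07 for Scn2a1 against 42.9 ± 1.61 for Scn8a, 58.9 ± 2.92 for Cacnb3 against 46.2 ± 3.10 for Cacnb1, and 29.9 ± 2.01 for Cacna2d3 against 29.4 ± 2.23 for Cacna2d1, the last pair within the spread of its libraries. FPKM was not scaled by TMM, and relative to sham the I/R level of each of the 33 genes was higher in FPKM than in CPM, so FPKM was used only to compare genes within a library.

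**Figure D3:**
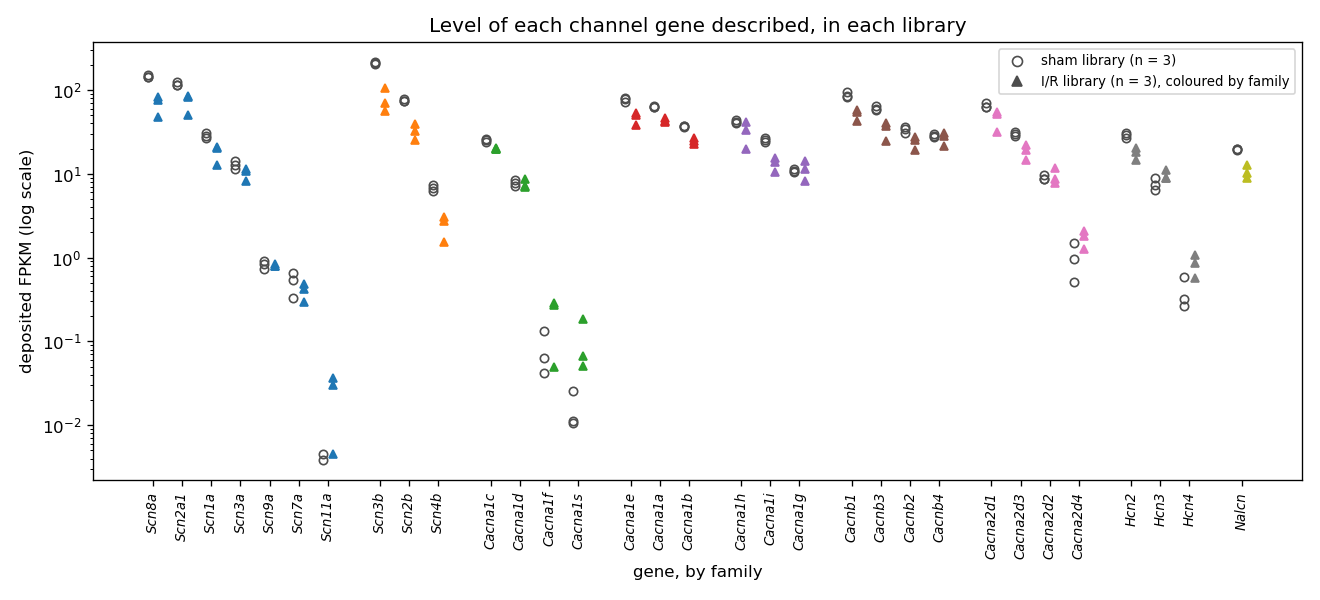
Deposited FPKM, on a log scale, of the tested channel genes in each of the 3 sham (open circles) and 3 I/R libraries (triangles, coloured by family). A library in which a gene is at 0 is not drawn, as for Scn11a in sham replicate 1. The genes span from under 0.01 FPKM for Scn11a to 214 FPKM for Scn3b.

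In several families the mix of subunits differed between the groups with no overlap of libraries. The share of each gene in the summed FPKM of the genes described in its family was compared between groups by an exact two-sided permutation test, whose smallest possible p is 0.1 with 3 libraries against 3, so the shares are a description. Scn8a made up 47.8% ± 0.363 of the sodium pore FPKM in sham and 40.2% ± 0.656 in I/R (SD, n = 3, exact p = 0.1), and Scn2a1 made up 38.4% ± 0.112 in sham and 42.5% ± 0.483 in I/R. Scn8a was thus above Scn2a1 in all sham libraries, at 1.23 to 1.26 times its FPKM, and below it in all I/R libraries, at 0.930 to 0.961 times. Per listed length the ratio was 0.921 to 0.937 in sham and 0.694 to 0.717 in I/R, so the order changed on the FPKM scale alone while the ratio fell on both. The ratios of gene pairs given here were chosen after their values were seen.

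Cacna1i made up 32.5% ± 0.445 of the T-type FPKM in sham and 24.3% ± 2.83 in I/R (SD, n = 3, exact p = 0.1), and Cacna1g 13.9% ± 0.0412 and 20.2% ± 0.938. Cacnb4 made up 13.5% ± 0.784 of the calcium beta FPKM in sham and 19.6% ± 0.580 in I/R. The groups did not overlap in any of these shares, nor per listed length.

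**Figure D4:**
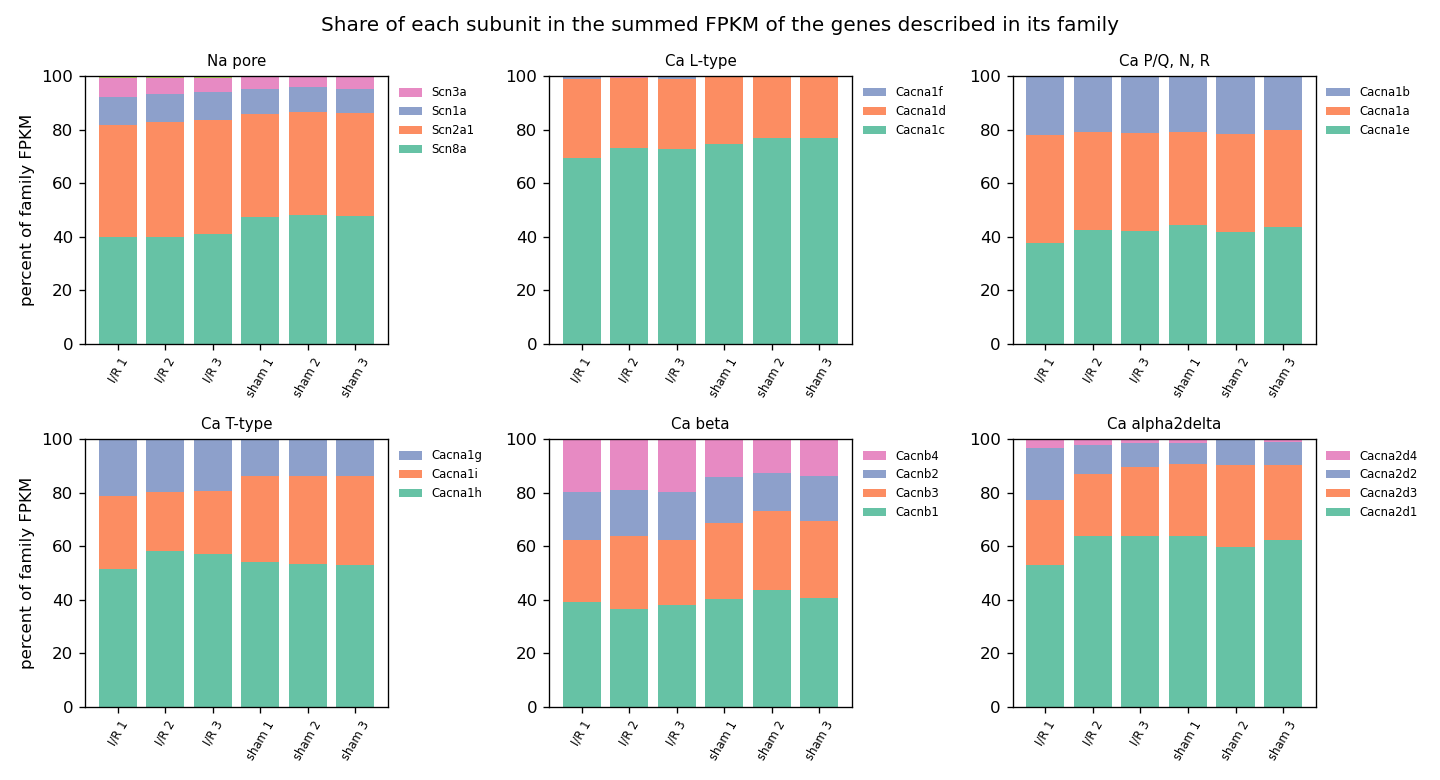
Share of each gene, in percent, in the summed FPKM of the genes described in its family, with 1 bar per library and genes stacked in the order of their mean sham share. Genes that reach 1% in a library are named. The lowest block of the sodium pore panel, Scn8a, is 39.7% to 40.9% in I/R and 47.4% to 48.1% in sham.

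Genes of proteins that bind these channels, or are related to their subunits, were counted in 4 lists. The lists hold 44 names, with an older and a newer name for some genes, and 36 genes were tested. Ank2, Ank3, Rims1 and Fam155b were not matched to a single row of the gene table and were not tested. Of the partner genes tested, 18 were lower, 2 were higher and 16 were not called, with a median log2 fold change of −0.50. The shares over all genes tested were 16.3% lower and 17.2% higher. In the list of sodium channel partners 7 of 11 genes fell, and in that of calcium channel partners 8 of 18 fell and 2 rose. Of those 8, Cacng2, Cacng3, Cacng4, Cacng7 and Cacng8 are Cacng genes, which were left out of the channel genes above. In the list of HCN partners 1 of 5 fell, and in the NALCN complex 3 of 3 fell. Fgf13, an intracellular factor that binds the tail of sodium channels, had a log2 fold change of −1.18 (SE 0.22, adjusted p = 0.00461), and Cntn1, an adhesion molecule that binds beta subunits, of −1.15 (SE 0.22, adjusted p = 0.00394). Nedd4l, a ubiquitin ligase that acts on sodium channels and stands in the sodium and HCN lists, was at −0.69 (SE 0.17, adjusted p = 0.0146) and was not called without any 1 of the sham libraries. The NALCN complex fell with its pore, with Unc80 at −1.01 (SE 0.16, adjusted p = 0.00197) and Fam155a at −0.78 (SE 0.18, adjusted p = 0.00953). Cacng8, which is related to calcium channel gamma subunits but serves mainly AMPA receptors, was at −1.43 (SE 0.27, adjusted p = 0.00490), and Stac2, an adaptor of L-type channels, was at −1.09 (SE 0.17, adjusted p = 0.00192).

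The 2 partner genes that rose encode small GTPases that bind calcium channel beta subunits and lower the calcium current. Gem was at 27.2, 13.0 and 11.6 CPM in I/R and at 2.11, 1.99 and 2.31 CPM in sham. I/R replicate 1 was the highest, and all I/R libraries were far above sham. The log2 fold change of Gem was 3.01 (SE 0.34, adjusted p = 0.000523). Rrad was at 5.71, 2.74 and 2.27 CPM in I/R and 1.03, 1.71 and 0.644 CPM in sham, with a log2 fold change of 1.65 (SE 0.45, adjusted p = 0.0205). It was not called without sham replicate 1 or sham replicate 3. Rem1 and Rem2, of the same GTPase family, were at 0.44 (adjusted p = 0.643) and 0.06 (adjusted p = 0.855) and were not called.

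**Figure D5:**
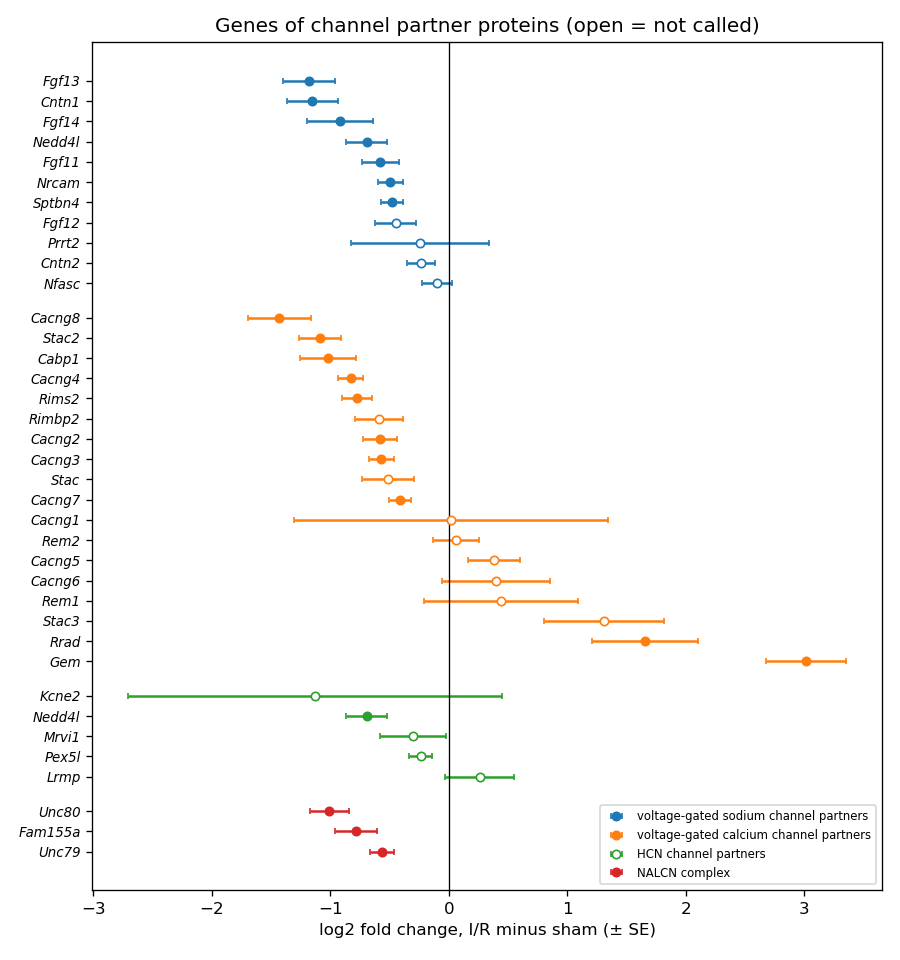
Log2 fold change, I/R minus sham, of the 36 tested partner genes in their 4 lists, with Nedd4l drawn in 2 of them. Points are edgeR estimates, bars are ± 1 standard error, and filled points were called DEGs. Gem at 3.01 and Rrad at 1.65 are the filled points on the right, and Cacng8 at −1.43 is the lowest.

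Markers of the cells that the tissue could hold were measured in the same libraries. Their counts stand beside shares of 16.3% lower and 17.2% higher over all genes tested. Among principal cells, 6 of 6 dentate granule markers, 4 of 5 CA1 markers and 3 of 5 CA3 markers were lower. Over all markers of each list, called or not, the median log2 fold change was −1.96, −1.14 and −1.36 in that order. Of 7 GABAergic interneuron markers, 4 were lower, and the median of all 7 was −0.31. The summed level of these 7 was 767 to 852 CPM in I/R and 1024 to 1093 CPM in sham. The interneuron markers thus spread far less over the I/R libraries than the channel genes did. Endothelial markers were higher in 4 of 4, astrocyte markers higher in 2 and lower in 2 of 5, microglial markers higher in 1 and lower in 2 of 5, and smooth muscle and pericyte markers higher in 2 and lower in 2 of 5. Oligodendrocyte markers were lower in 2 of 5 and markers of their precursors in 2 of 3, while the 5 choroid plexus markers, at −1.59 to −0.37, were not called, striatal markers were higher in 1 of 5 and thalamic markers lower in 1 of 3. Some marker calls were lost when a library was left out, as for C1ql2 and Calb1 without sham replicate 1 or 2. No marker was at 0 in all libraries, and the part of these cell types in the channel results was not tested.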

How the data were processed

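RNA of hippocampus was sequenced in 3 I/R and 3 sham libraries, grouped by their titles. The authors aligned reads with TopHat 2 to an Ensembl genome and counted them over genes in HTSeq. The submitters' notes name Bowtie 0.12.2 and mm8, while the table's identifiers are of Ensembl's BALB/cJ annotation. Strand use is not given in the sources used here. The deposited table gave raw counts, used for tests, and FPKM per library, made by the authors with a length shorter than the listed one for 72.8% of 13739 genes of at least 50 counts in each library. Pooled FPKM, fold change and p-value columns of the authors were not used. Of the table's lines, 4 had been split and were rejoined.

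Genes with at least 10 reads over the 6 libraries were tested in edgeR 4.0.16 (R 4.3.3, TMM, robust glmQLFit, glmQLFTest, no covariates). The SE is the size of the log2 fold change divided by the square root of F. Alternatives were other scalings, filters and call rules, DESeq2 1.42.0, limma-voom (limma 3.58.1), a replicate block and left-out libraries. The fit was also run on simulated counts drawn from its own dispersion estimates. Few genes were changed there, evenly up and down, so that run did not copy the many changes of these data. All library values are given for called genes and the highest gene of each family, and partner genes are named by the 2 largest called changes in each direction of a list. Values of other uncalled genes, of Rem1 and Rem2 and gene pair ratios were added after they were seen. The channel genes and all lists were chosen with earlier results of these data known. P-values set each difference against the spread between pools, estimated with information shared over genes, and floors cover counting error only. Some genes of the rule are not reported here, and family sums and shares cover the genes described.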

Additional observations from a re-analysis of the deposited data

How the results depend on the processing

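Over the alternative settings, 440 of 478 values of the 32 tested channel genes kept their direction and their side of the threshold, 25 were no longer called, 8 became called and 5 changed sign. With fold over 2 the called channel genes fell from 21 to 9 (8 lower), partner genes from 20 to 8 (6 lower) and all genes from 7688 to 2937 (2028 higher, 909 lower). With library size only, channel genes had 2 higher, partners 11 lower, and all genes 6483 higher and 1953 lower, while Cacna1g was at 0.030 and Cacna2d2 at 0.044 (log2). By unadjusted p, 2 channel genes were higher. The 1 higher channel gene, Cacna1s, became 0 with upper quartile scaling, filterByExpr (which did not test it), no filter, limma-voom and the 4 libraries of over 10000 Ttr counts. With those libraries 2489 of all genes were lower, 1 partner was higher and Hcn3 was at −0.080. Leaving out 1 library in turn gave 0 to 1 higher channel genes, 17 to 22 lower channel genes, 2398 to 4061 lower genes in all, and 1 to 3 higher partners. The 2398 came without sham replicate 2. Hcn3 ranged from −0.075 without I/R replicate 3 to 0.22, with −0.040 without sham replicate 3. The cause of these changes was not tested. Same-numbered libraries had correlations of deviations of −0.121, 0.0389 and −0.205, against −0.158 to 0.291 for the other pairs. These values gave no sign that the numbers pair the libraries but cannot exclude it. The replicate block gave 20 channel genes lower and 0 higher (Cacna1d lost its call, adjusted p = 0.0522, and Cacna1h gained one, adjusted p = 0.0294). Of 52 group means of shares, 42 moved by more than the SD between replicates per listed gene length, an alternative chosen after seeing the data. When a library was left out 0 moved that far. The mean of 3 libraries cannot move by its SD when 1 is dropped, so this 0 shows nothing about the shares. At 3 counts, a gene had 0.0648 to 0.0878 CPM, so Scn10a and Scn11a could not be compared firmly at this depth.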
